A study of Mus musculus with 4 samples.

Results

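Fcer2a, which encodes CD23, and Cr2, which encodes CD21 and CD35, were described together with 6 further genes of the B cell surface (Cd55, Cd22, Cd72, Cd24a, Cd1d1 and Cd9) in blood cells of 2 mouse strains at 2 ages. The 8 genes were taken by symbol from the 32285 genes of the deposited count matrices, and all 8 were found once. They were read in B cells, defined as cells with 2 or more unique molecular identifiers (UMIs, each a counted RNA molecule) of Cd79a, a signalling chain of the B cell receptor. Of 11596 cells kept, 5816 met this definition, and 4825 of them held fewer than 5 UMIs of Zcwpw1. The other 991 B cells, with 5 or more Zcwpw1 UMIs, were read apart, because 911 of them came from a single library.

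CD23 is the low-affinity receptor for IgE, and CD21 is the receptor for the C3d fragment of complement, which works in a coreceptor complex that lowers the threshold of the B cell receptor. Follicular B cells, the main recirculating B cells of blood, carry both, whereas marginal zone B cells are rich in CD21 and CD1d and poor in CD23, and B-1 and age-associated B cells have little CD23 or CD21. CD55 is a membrane-anchored protein that speeds the decay of complement convertases, CD22 and CD72 are inhibitory receptors that recruit the phosphatase SHP-1, CD24 is a heavily glycosylated anchored protein that is high on immature B cells, CD1d presents lipids to natural killer T cells, and CD9 is a tetraspanin found on marginal zone and B-1 B cells, platelets and myeloid cells. In the mouse the gene Cr2 gives rise to CD21 and CD35 by splicing, and counts from the 3′ end of transcripts do not separate them.

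Coordinates are of build GRCm38 (mm10), the build named in the submitters' processing notes. Fcer2a lies on the minus strand of chromosome 8 (chr8:3681737-3694175) and Cr2 on the minus strand of chromosome 1 (chr1:195136811-195176716), and no other annotated gene overlaps either of them. Cd55 (chr1:130439027-130462744), Cd22 (chr7:30865402-30880342), Cd72 (chr4:43446462-43454628) and Cd9 (chr6:125460266-125494791), all on the minus strand, are each overlapped by at least 1 other annotated gene. Tesk1 overlaps the 3′ end of Cd72, from 43446462 to 43448064. The sources used here do not say whether strand was used in counting, and whether reads of Tesk1 were counted for Cd72 was not tested. Cd24a (chr10:43578284-43584265, plus strand) and Cd1d1 (chr3:86995834-86999441, minus strand) have no overlapping gene. Cd55b and Cd1d2 are related copies near Cd55 and Cd1d1 that could share reads with them.

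The sequences upstream of the transcription starts of 4 genes are shown because 3 of them (Fcer2a, Cr2 and Cd72) were nearly absent together from one group of B cells and Cd22 was not. Each is 250 bases read on the strand of the gene, 5′ to 3′, from RefSeq annotation of GRCm38.p6, with motif matches in capitals. Fcer2a has 3 listed starts, of which the outermost and the next are given (chr8:3694175-3694424 and chr8:3690862-3691111). The other windows are chr1:195176720-195176969 for Cr2, chr4:43454627-43454876 for Cd72 and chr7:30879029-30879278 for Cd22. The second Fcer2a window and the Cd22 window lie inside the annotated genes, whose 5′ ends are at 3694175 and 30880342.
Fcer2a, outer start: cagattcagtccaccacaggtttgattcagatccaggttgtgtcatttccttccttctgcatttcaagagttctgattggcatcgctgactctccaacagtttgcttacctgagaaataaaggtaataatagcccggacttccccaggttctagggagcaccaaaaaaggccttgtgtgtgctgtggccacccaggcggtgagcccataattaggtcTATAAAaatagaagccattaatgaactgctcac
Fcer2a, second start: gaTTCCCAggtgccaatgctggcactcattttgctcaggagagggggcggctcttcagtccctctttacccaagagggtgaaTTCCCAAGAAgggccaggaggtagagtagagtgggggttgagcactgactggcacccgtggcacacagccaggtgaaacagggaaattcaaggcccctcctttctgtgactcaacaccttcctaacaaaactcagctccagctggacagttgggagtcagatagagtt
Cr2: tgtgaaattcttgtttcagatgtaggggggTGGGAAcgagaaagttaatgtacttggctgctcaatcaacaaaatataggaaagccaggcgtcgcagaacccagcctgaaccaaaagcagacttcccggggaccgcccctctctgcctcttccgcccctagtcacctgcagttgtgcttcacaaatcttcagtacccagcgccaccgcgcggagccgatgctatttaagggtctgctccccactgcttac
Cd72: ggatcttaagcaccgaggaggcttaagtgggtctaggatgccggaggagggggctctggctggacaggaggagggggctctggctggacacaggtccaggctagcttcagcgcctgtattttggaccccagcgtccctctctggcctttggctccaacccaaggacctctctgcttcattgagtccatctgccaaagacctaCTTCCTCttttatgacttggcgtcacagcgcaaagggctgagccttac
Cd22: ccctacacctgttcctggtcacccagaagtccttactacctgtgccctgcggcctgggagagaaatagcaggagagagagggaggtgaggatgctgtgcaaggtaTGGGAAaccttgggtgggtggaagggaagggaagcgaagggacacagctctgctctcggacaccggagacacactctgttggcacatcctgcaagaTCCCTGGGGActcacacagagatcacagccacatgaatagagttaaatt

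The 6 motifs were searched on both strands, and a match is a description of the letters only. The outer Fcer2a window held a TATA box (TATAAA) that began 33 bases before the start, a motif in 12.4% of the 32851 mouse windows of this length. The second Fcer2a window held a STAT motif (TTC and GAA with 4 bases between them, in 5.85% of windows), which overlapped 1 of its 2 matches to the RBPJ motif (TGGGAA, in 21.6%). The capitals there read TTCCCA for the complement of the RBPJ motif. Cr2 and Cd22 each held 1 RBPJ match, and Cd22 also held an EBF motif (TCCC and GGGA with 2 bases between them, in 0.779%). Cd72 held 1 PU.1 motif (GAGGAAG, in 10.6%), read here as its complement. No octamer (ATTTGCAT, in 1.6%) was found in any of these windows, and the Cd55 window held none of the 6 motifs.

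The mononuclear blood cells came from mice of the strains labelled BL/6 and SM/J at 12 and 20 months of age, with no treatment named. Heart blood was enriched for mononuclear cells on a density gradient, with a slow spin that removes platelets and lysis of red cells. For each strain the cells of both ages were marked with tag oligos, mixed and processed as 1 droplet 3′ RNA library, so strain and run cannot be told apart. The deposited matrices separate the 4 combinations of strain and age, called libraries below, and aliquot values use 3 tags in each. In the 12-month libraries 20 cells of BL/6 and 28 of SM/J carried mostly a tag of the other age, so the ages were not separated completely. These cells stay in the summed levels. Without them, an alternative chosen after seeing the data, the numbers of members called in the age, strain, Zcwpw1 and Fras1 comparisons below were the same, and each of 55 member ratios stayed within its counting interval. Whether each tag stands for a single mouse is not given in the labels, so the tagged groups are called aliquots and serve only to show spread. There is 1 library per strain and age, so no test between conditions was possible and no p-value is given.

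The 4 libraries kept between 2407 and 3398 cells with medians of 4060 to 8837 UMIs per cell, the highest in SM/J at 20 months, and any 2 libraries shared at most 3 barcodes. Levels are given as CPM, the UMIs of a gene per 1000000 UMIs summed over the cells of a group, with exact Poisson 95% intervals, and shares of cells with exact binomial 95% intervals. These intervals cover counting error only. In bulk sums of this kind fewer cells carrying an RNA and less RNA per cell cannot be told apart, so shares of cells are given beside the levels. The B cell definition was checked against Cd79b, found in at least 94.2% of the B cells of each library, and Ms4a1, found in at least 82.6%. SM/J reads were counted on a reference that, by the build named, derives from C57BL/6, and the part of sequence differences in strain results was not tested. In SM/J at 20 months the B cells with fewer than 5 Zcwpw1 UMIs also held more UMIs of the 5 macrophage markers (C1qa, C1qb, C1qc, Prg4 and Alox15; 912 CPM) than in the other libraries (30.1 to 145), against 11371 to 15596 in macrophages. All 5 were detected in each library, and members whose 1.5-fold call changed without such cells are named below with both values.

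Fcer2a was highest in BL/6 and was lower at each step of the order BL/6 12 months, BL/6 20 months, SM/J 12 months, SM/J 20 months. In B cells with fewer than 5 Zcwpw1 UMIs its level was 231 CPM (95% interval 220 to 241) in BL/6 at 12 months, 175 (163 to 188) in BL/6 at 20 months, 81.8 (75.2 to 88.9) in SM/J at 12 months and 35.4 (30.2 to 41.3) in SM/J at 20 months. The 3 aliquots ran from 225 to 235, 158 to 197, 70.9 to 98.6 and 31.9 to 38.9 CPM in that order, so no 2 libraries overlapped. Shares of cells with at least 1 Fcer2a UMI followed the same order, at 52.2%, 42.0%, 25.6% and 16%. After thinning each cell to 1000 UMIs the shares were 20.0%, 18.5%, 11% and 5.74%, again in this order. T cells, which should lack the gene, held an Fcer2a UMI in 0% to 1.81% of cells, at medians of 3895 to 5276 UMIs against 3509.5 to 5349 in these B cells.

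Cr2 was likewise higher in BL/6 than in SM/J, and highest at 12 months. Its level was 126 CPM (118 to 134) in BL/6 at 12 months, 83.1 (74.7 to 92.2) in BL/6 at 20 months, 37.3 (32.9 to 42.1) in SM/J at 12 months and 29.6 (24.8 to 35.0) in SM/J at 20 months. The SM/J libraries could not be ordered, since their aliquots overlapped, running from 27.4 to 41.8 CPM at 12 months and from 27.8 to 31.3 at 20 months. The BL/6 aliquots lay apart, at 113 to 138 and 70.4 to 96.9. A Cr2 UMI was found in 32.9%, 25.5%, 13.9% and 13.5% of cells, against 0% to 1.01% of T cells.

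Both receptor RNAs were detected in the same cell in 20.2% of BL/6 B cells at 12 months, 13.5% at 20 months, 7.37% of SM/J B cells at 12 months and 4.77% at 20 months. The product of the separate shares would give 17.2%, 10.7%, 3.55% and 2.16%. Neither RNA was detected in 35.1%, 46.0%, 67.9% and 75.3% of cells, and in 71.3%, 75.9%, 84.6% and 91.3% after thinning to 1000 UMIs. In SM/J the cells with neither were deeper than the cells with both (medians of 5840 and 3486 UMIs at 12 months, and 6168.5 and 3572 at 20 months), and in BL/6 the medians were close.

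**Figure D1:**
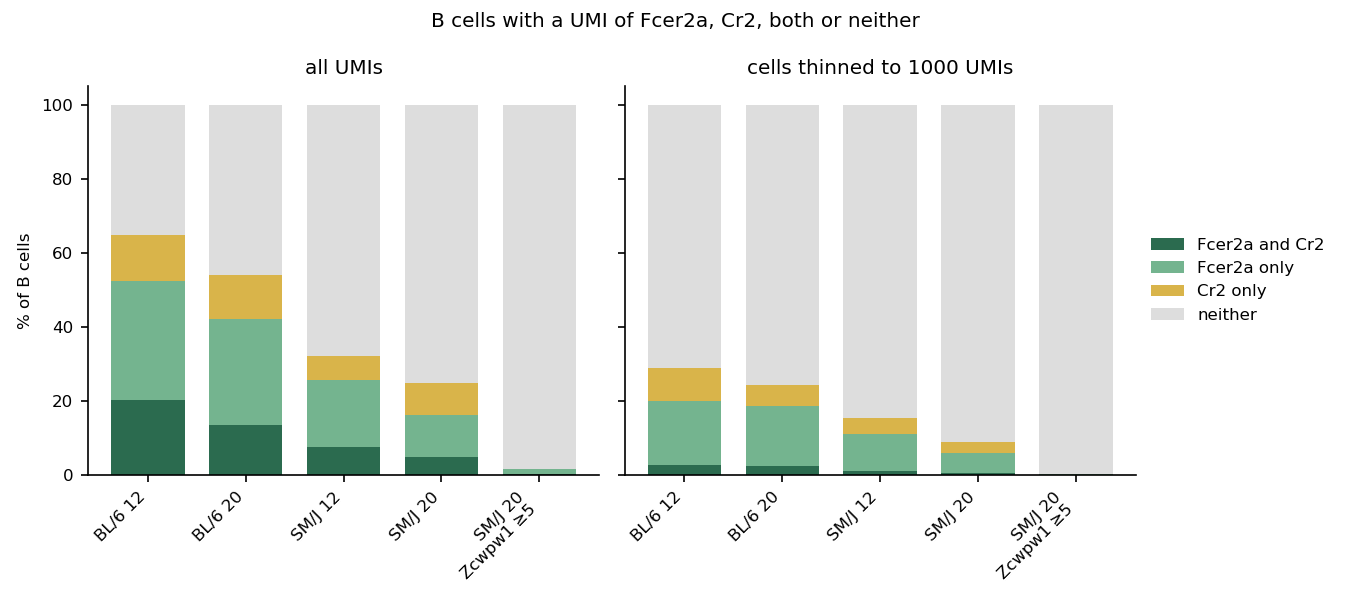
Share of B cells (y axis, %) with a UMI of both Fcer2a and Cr2, of 1 of them or of neither, by library, with all UMIs (left) and after thinning each cell to 1000 UMIs (right); the last bar holds B cells of SM/J at 20 months with 5 or more Zcwpw1 UMIs. The cells with neither rise from 35.1% in BL/6 at 12 months to 75.3% in SM/J at 20 months, and to 98.5% in the last bar.

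The cells with both RNAs also carried more Ighd, the constant region of IgD and a mark of mature follicular B cells, in all 4 libraries. Ighd stood at 699 CPM in cells with both and 411 in cells with neither in BL/6 at 12 months, and at 783 and 325 in BL/6 at 20 months. The gap was wider in SM/J, at 708 and 179 at 12 months and 634 and 118 at 20 months. Cd55 was also higher in the cells with both in every library, for example 376 against 153 CPM in SM/J at 12 months. Cd9 went the other way in every library, from 44.4 against 74 CPM in BL/6 at 12 months to 39.2 against 212 in SM/J at 12 months. Bhlhe41, a transcription factor of B-1 cells, was likewise lower in the cells with both, at 7.60 against 53.6 CPM in BL/6 at 12 months. Cd72 did not keep 1 direction: it was 102 CPM in cells with both and 153 in cells with neither in BL/6 at 12 months, but 139 and 24.6 in SM/J at 20 months. These cells were chosen by the detection of Fcer2a and Cr2, so their other genes are given as a description.

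Among the complement and inhibitory genes, Cd55 and Cd72 had the order of Fcer2a and Cd22 did not. Cd55 stood at 513 CPM in BL/6 at 12 months, 383 in BL/6 at 20 months, 199 in SM/J at 12 months and 169 in SM/J at 20 months, and was found in 78.2%, 72.8%, 56.0% and 54.2% of cells. Its aliquots overlapped between the SM/J ages only. Cd72 stood at 126, 103, 51.8 and 35.6 CPM in the same order, with no overlap of aliquots between any 2 libraries though the BL/6 ages only just parted (116 to 139 at 12 months and 80.4 to 116 at 20 months). Cd22 stood at 207, 163, 117 and 130 CPM, so that SM/J at 20 months was not the lowest, and the SM/J aliquots overlapped (111 to 124 and 109 to 140).

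Cd9 was higher in SM/J at both ages and Cd24a at 12 months, and Cd1d1 was near the limit of detection everywhere. Cd24a stood at 161 CPM in BL/6 at 12 months, 202 in BL/6 at 20 months, 325 in SM/J at 12 months and 237 in SM/J at 20 months, with no overlap of aliquots between these libraries. Cd9 stood at 54.6, 44.1, 177 and 131 CPM, and was found in 16.1%, 13.2%, 39.4% and 33.6% of B cells. The Cd9 aliquots overlapped between the BL/6 ages and not otherwise. Cd1d1 stood at 11.6, 13.3, 8.01 and 9.29 CPM, in 4.12% to 5.59% of cells, and its intervals of neighbouring libraries overlapped. T cells held as much, at 8.47 to 14.8 CPM, so no B cell pattern of Cd1d1 could be read at this depth.

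**Figure D2:**
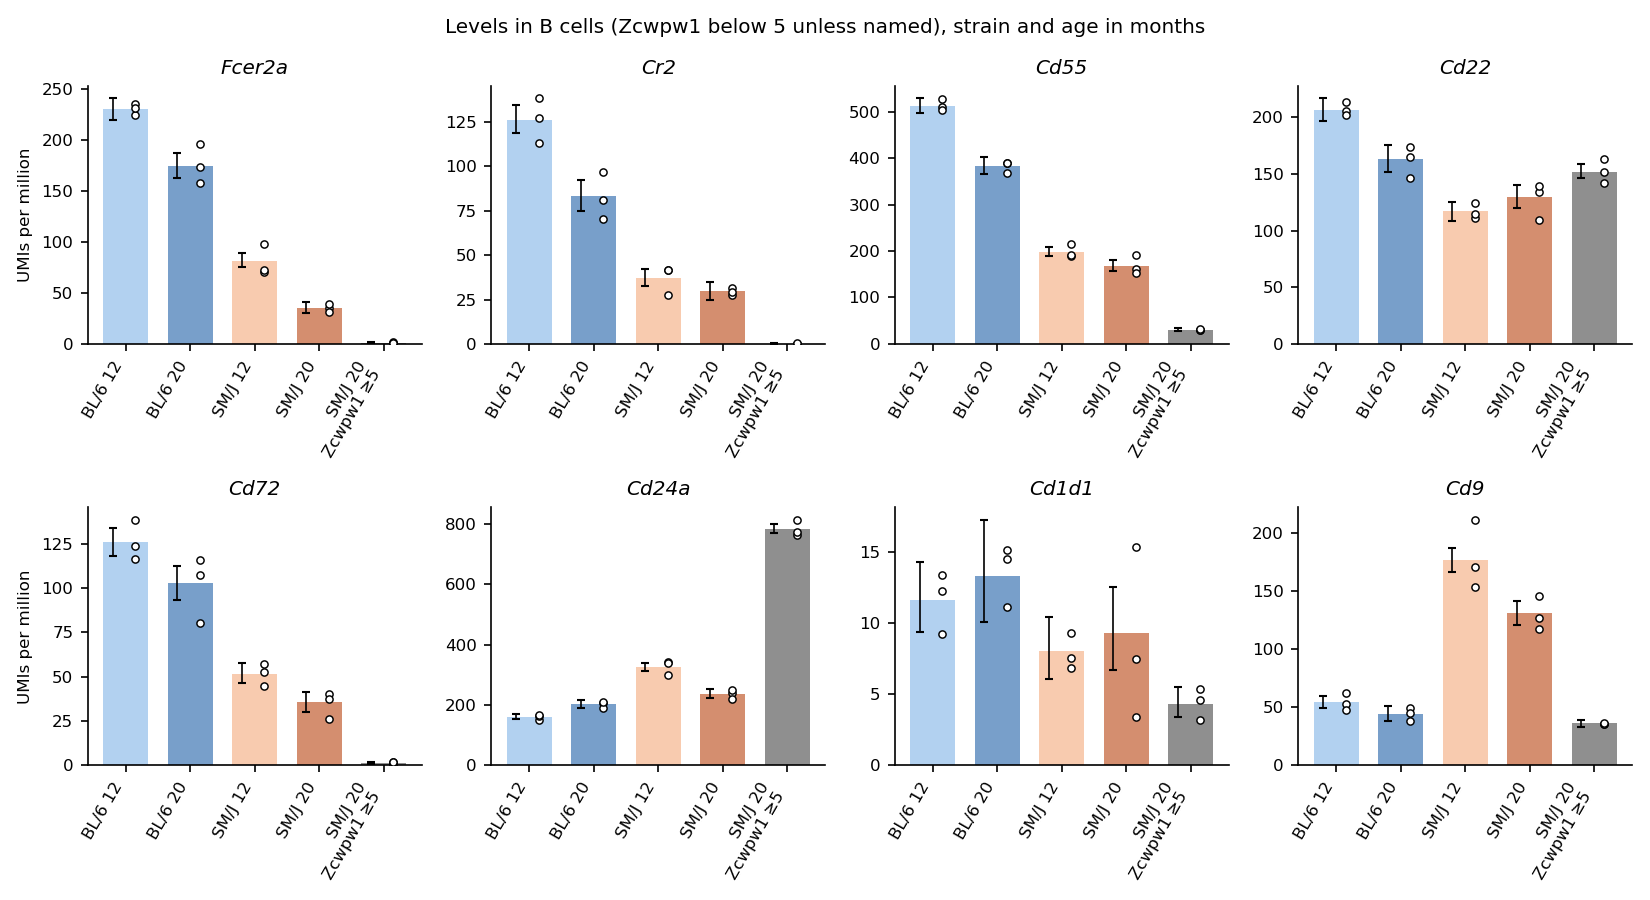
Level of each gene in B cells (y axis, CPM) for the 4 libraries with fewer than 5 Zcwpw1 UMIs per cell and, in grey, for SM/J at 20 months with 5 or more. Bars are sums over cells, error bars exact Poisson 95% intervals and open points the 3 tag aliquots; Fcer2a steps from 231 down to 35.4 and then to 1.02, while Cd24a reaches 783 in the grey bar.

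Between 12 and 20 months in BL/6, 1 member passed the 1.5-fold count used here, and the other ratios were smaller. A gene was counted as higher or lower where its summed level differed by at least 1.5-fold, a threshold of size and not a test. By this count 0 of the 8 members were higher and 1 was lower, Cr2, against 3.47% of 5612 genes higher and 1.21% lower. Genes entered this background with at least 100 UMIs in the pair and a mean of at least 20 CPM, which Cd1d1 did not reach in any B cell comparison and the other members did except where stated. The log2 ratio of Cr2 was -0.60 (95% counting interval -0.78 to -0.43), just past the threshold. That call ended under several settings, for example at -0.39 when each cell counted equally, at -0.37 in cells with no T cell, Lyz2 or Jchain UMIs, at -0.48 without cells of 3 or more monocyte or macrophage marker UMIs and at -0.53, -0.52 and -0.58 without 1 of 3 single aliquots. Fcer2a had a log2 ratio of -0.40 (-0.52 to -0.27), Cd55 of -0.42, Cd22 of -0.34 and Cd72 of -0.30, each with aliquots apart. With a mitochondrial limit of 5% in place of 10%, Fcer2a passed the threshold at -0.75. Cd24a had 0.33 (0.20 to 0.45), also with aliquots apart. The median over the 8 members was -0.32 and over all genes tested 0.00. BL/6 at 20 months also held 2487 CPM of the 5 plasma cell markers, mostly Jchain, against 163 at 12 months, and its part in these ratios was not tested beyond the setting without Jchain above.

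In SM/J the fall of Fcer2a between 12 and 20 months was the only call among the members. Its log2 ratio was -1.21 (-1.47 to -0.95), a 2.31-fold lower level (1.94 to 2.77). Of the 8 members 0 were higher and 1 was lower, against 3.25% and 2.98% of 5507 genes. Cd72 (-0.54), Cd24a (-0.46) and Cd9 (-0.43) had lower levels at 20 months with aliquots apart, and Cr2 (-0.33), Cd55 (-0.24), Cd22 (0.15) and Cd1d1 (0.21) had overlapping aliquots. Cr2 passed the threshold under other settings, at -1.05 with a mitochondrial limit of 5% and at -0.93 in cells with no T cell, Lyz2 or Jchain UMIs. With cells thinned to 1000 UMIs Cd1d1 was higher, at 1.27, and Fcer2a, Cd72 and Cd9 were lower. The median over the members was -0.38 and over all genes tested -0.04. These values moved with a group of B cells in SM/J at 12 months that carried 2 or more UMIs of Fras1, which encodes an extracellular matrix protein. Among B cells with fewer than 5 Zcwpw1 UMIs, 333 of 1262 were such cells at 12 months and 86 of 733 at 20 months. In each BL/6 library there was 1. The 911 B cells of SM/J at 20 months with 5 or more Zcwpw1 UMIs, read apart, also held Fras1. Its level there was 197 CPM, with a UMI in 35.6% of cells at a median of 13077 UMIs.

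The Fras1 cells of SM/J at 12 months held little Fcer2a, Cr2 or Cd72 and much Cd24a and Cd9. They were deeper than the other cells, at medians of 7683 and 3383 UMIs, and held 844 CPM of the plasma cell list (Jchain, Xbp1, Sdc1, Prdm1 and Tent5c) against 338, whose part was not tested. Fcer2a stood at 6.80 CPM in them and at 129 in the other 929 cells of that library, a log2 ratio of -4.24 (-5.01 to -3.57). Cr2 stood at 3.78 and 58.3 CPM (-3.95), Cd72 at 9.83 and 78.2 (-2.99), Cd22 at 54.4 and 156 (-1.52) and Cd55 at 117 and 250 (-1.10). Cd24a stood at 488 and 223 CPM (1.13) and Cd9 at 283 and 110 (1.36). In all 2 members were higher and 5 lower, against 8.14% and 9.59% of 5456 genes. This group was chosen after its cells had been seen, so the values are a description. Without the Fras1 cells, 3 members were lower in SM/J at 20 months than at 12 months, against 4.22% of 5493 genes, and 0 were higher, against 3.5%. They were Fcer2a at a log2 ratio of -1.70 (-1.96 to -1.44), Cr2 at -0.88 (-1.21 to -0.57) and Cd72 at -1.05 (-1.34 to -0.77), all with aliquots apart. Cd9 then turned to 0.26 and Cd24a to -0.08, both with overlapping aliquots.

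Between the strains the members parted into a group lower in SM/J and a group higher in SM/J. At 12 months Fcer2a had a log2 ratio of SM/J over BL/6 of -1.49 (-1.63 to -1.36), Cr2 of -1.76 (-1.96 to -1.56), Cd55 of -1.37, Cd72 of -1.28 and Cd22 of -0.82. Cd9 (1.69, 1.54 to 1.86) and Cd24a (1.02, 0.92 to 1.12) were higher. In these counts 5 members were lower and 2 higher, against 11.9% and 9.02% of 5575 genes. Without the Fras1 cells 5 were lower, against 9% of 5566 genes, and 1 higher, against 6.63%. Of the 5, 4 passed the filter on levels and Cd1d1 did not, and without that filter 27.2% of 11446 genes passed in either direction. Fcer2a was then at -0.84 (-0.98 to -0.70), Cr2 at -1.12, Cd55 at -1.04 and Cd72 at -0.69, Cd22 lost its call at -0.41 and Cd24a at 0.47, and Cd1d1 passed the threshold at -0.62.

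At 20 months 4 members were lower in SM/J and 1 was higher, against 17.4% and 9.85% of 5627 genes. Fcer2a had a log2 ratio of -2.30 (-2.56 to -2.06), a 4.94-fold lower level, the largest difference among the members at these settings. Cd72 (-1.53), Cr2 (-1.49) and Cd55 (-1.18) were also lower, and Cd9 was higher at 1.57 (1.33 to 1.81). Cd22 (-0.33) and Cd24a (0.23) stayed within the threshold, both with aliquots apart. Without the Fras1 cells Cd24a was at 0.07 and its aliquots overlapped, and Cd1d1, which did not pass the filter on levels, passed the threshold at -0.67. The median over the members was -0.85 at 20 months and -1.05 at 12 months, against -0.14 and -0.08 over all genes tested. The 2 ages share no cells, but both strain comparisons share libraries with the age comparisons, so their members' values are not independent of each other.

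Part of the Cd9 and Cd22 values moved with the cells that carried monocyte or macrophage markers. With cells of 3 or more such UMIs left out, the strain ratio of Cd9 at 20 months was 1.07 in place of 1.57, and its age ratio in SM/J was -0.84 in place of -0.43, which passes the threshold. The age ratio of Cd72 in SM/J then passed as well, at -0.59 in place of -0.54, and the strain ratio of Cd1d1 at 20 months, at -0.73 in place of -0.52. Cd22 then had an age ratio in SM/J of 0.56 and a strain ratio at 12 months of -1.23. With a mitochondrial limit of 5% the strain ratio of Cd22 at 12 months was -0.11, which ends its call, and that of Cd24a was 0.47. Under that limit the ratio of Fcer2a shrank to -1.05 in place of -1.49 at 12 months and to -1.57 in place of -2.30 at 20 months. Both values lie outside the counting intervals given above and still pass the threshold.

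**Figure D3:**
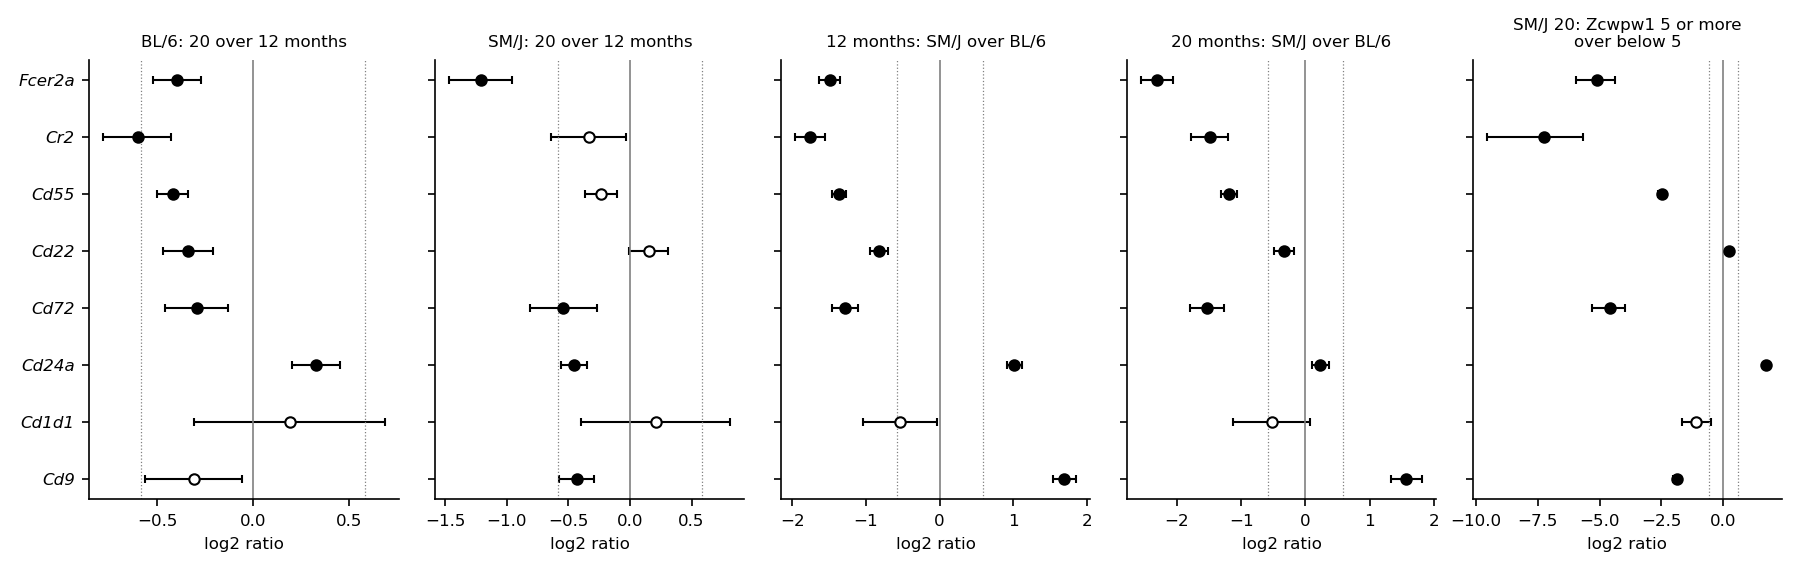
Log2 ratio of summed levels (x axis) of the 8 genes in B cells for 5 comparisons, with exact 95% counting intervals; filled points have tag aliquots that do not overlap, open points have aliquots that do, and dotted lines mark 1.5-fold. Fcer2a, Cr2, Cd55 and Cd72 lie left of 0 in all 5 panels, and Cd9 lies at 1.69 and 1.57 in the strain panels.

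The B cells with 5 or more Zcwpw1 UMIs of SM/J at 20 months were nearly without Fcer2a, Cr2 and Cd72. In these 911 cells, with a median of 13077 UMIs, Fcer2a gave 16 UMIs (1.02 CPM, 0.584 to 1.66), Cr2 gave 3 (0.192 CPM, 0.0395 to 0.560) and Cd72 gave 23 (1.47 CPM, 0.931 to 2.20). The other 733 B cells of that library, at a median of 5349 UMIs, stood at 35.4, 29.6 and 35.6 CPM. T cells of the same library stood at 1.23 CPM for Fcer2a and 4.94 for Cd72, and gave 0 Cr2 UMIs, which allows up to 3.70 CPM. The values of Fcer2a and Cd72 in the Zcwpw1 group thus lay under those of the 185 T cells, which rest on 1 and 4 UMIs, and for Cr2 the T cells were too few for a comparison. The 337 macrophages of the library, with a median of 12671 UMIs, held 0.209 CPM of Fcer2a (1 UMI), 0.418 of Cr2 (2 UMIs) and 0.209 of Cd72 (1 UMI). The values of Fcer2a and Cd72 there lay under those of the Zcwpw1 group, but their counting intervals, both 0.00530 to 1.17, overlapped the intervals of that group. Whether the few UMIs of the Zcwpw1 group came from those cells or from free RNA was not tested. The log2 ratio between the 2 B cell groups was -5.12 (-5.96 to -4.37) for Fcer2a and -4.60 (-5.30 to -3.97) for Cd72. The ratio for Cr2 was 154-fold, with a counting interval of 51.7 to 758. Fcer2a aliquots ran from 0.716 to 1.59 CPM in the Zcwpw1 group and Cr2 aliquots from 0 to 0.596.

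The other members of that group went several ways. Cd24a rose to 783 CPM (770 to 797) from 237, a log2 ratio of 1.73 (1.64 to 1.82), and was found in 93.9% of these cells, with up to 208 UMIs in 1 cell. Cd22 stood at 152 CPM against 130, a log2 ratio of 0.23, and was found in 74.6% of cells. Cd55 fell to 30.5 CPM (-2.47, -2.63 to -2.30), still found in 36.1% of cells, and Cd9 to 36.3 CPM (-1.85, -2.02 to -1.69). Cd1d1 stood at 4.34 CPM (-1.10) with overlapping aliquots. In these counts 1 member was higher and 6 were lower, against 12.5% and 17.5% of 5436 genes. Only 4 of the 8 passed the filter on low levels that these genes had to pass, which Fcer2a, Cr2, Cd72 and Cd1d1 did not. Of those 4, Cd24a was higher and Cd55 and Cd9 were lower. Without the filter on levels, 40.6% of 12157 genes passed 1.5-fold in either direction. Because the Zcwpw1 cells held more RNA molecules, ratios of mean UMIs per cell were less low: -3.67 for Fcer2a, -5.83 for Cr2 and -1.02 for Cd55. On that scale Cd9 lost its call at -0.41, Cd1d1 turned to 0.35 and Cd22 reached 1.67. The macrophage markers stood at 92.7 CPM in the Zcwpw1 group against 912 in the other B cells of the library, and the plasma cell markers at 578 against 373. With cells of 3 or more monocyte or macrophage UMIs left out, Cd9 was at -1.41.

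The levels of Fcer2a and Cr2 in cells with few Zcwpw1 UMIs differed between the libraries. In SM/J at 20 months Fcer2a stood at 41.6 CPM in the 644 B cells with 0 Zcwpw1 UMIs and at 5.07 in the 89 cells with 1 to 4. It stood at 0.912 in cells with 5 to 9, at 0.755 with 10 to 19 and at 1.13 with 20 or more. Cr2 followed with 34.6, 5.07, 0, 0.503 and 0.0945 CPM. The cells with 1 to 4 UMIs, just under the threshold, were counted with those at 0. Cd9 in them, at 127 CPM, was near the 132 of the cells at 0. Cd24a climbed through the same bins, at 210, 369, 539, 566 and 890 CPM, and Cd22 stayed between 129 and 156. In BL/6 at 12 months the 50 cells with 1 to 4 Zcwpw1 UMIs held 122 CPM of Fcer2a, against 236 at 0. In SM/J at 12 months the 75 such cells held 51.0 CPM against 84.9, and in BL/6 at 20 months the 31 such cells held 174 CPM (118 to 247) against 175.

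**Figure D4:**
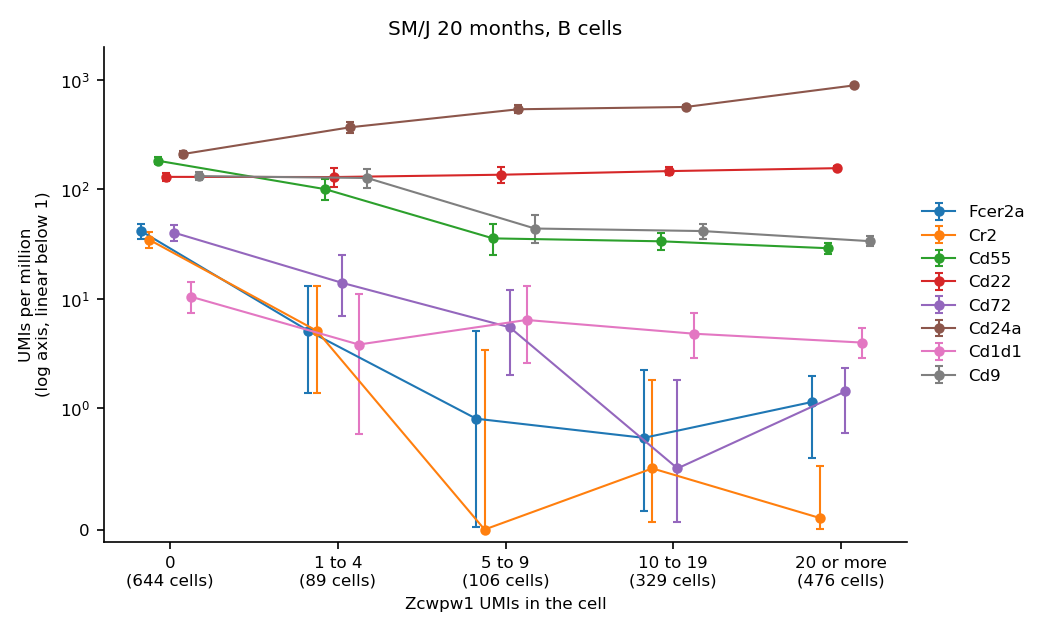
Level of each gene (y axis, CPM, log axis that is linear below 1) by the number of Zcwpw1 UMIs in the cell (x axis) in B cells of SM/J at 20 months, with exact Poisson 95% intervals; lines join bins of 1 gene. Fcer2a and Cr2 drop from 41.6 and 34.6 to 5.07 each at 1 to 4 UMIs, while Cd24a climbs from 210 to 890.

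The few Zcwpw1 B cells of the other libraries also held few UMIs of Fcer2a and Cr2, and Cd24a was not high in every case. In BL/6 at 12 months 49 such cells held 8 UMIs of Fcer2a (14.8 CPM, a log2 ratio of -3.96 against the other B cells), 8 of Cd72 (14.8 CPM) and 1 of Cr2 (1.85 CPM). Cd1d1 gave 0 UMIs, which allows up to 5.55 CPM. Cd24a stood at 107 CPM there against 161 (-0.58, and -0.83 without monocyte or macrophage marker cells, which passes the threshold), and Cd9 at 96.2 against 54.6. In that comparison 6 members were lower and 1 higher, against 28.6% and 10.3% of 5363 genes. Of the 6, 5 passed the filter on levels and Cd1d1 did not, and without that filter 50.3% of 10652 genes passed in either direction. In SM/J at 12 months 23 such cells held 4 UMIs of Fcer2a (12.7 CPM) and 1 of Cr2, with Cd24a at 644 CPM. The Cd24a aliquots were at 340, 1072 and 420 CPM, the 1072 from 9 cells. Cd72 gave 6 UMIs there (19 CPM), in 26.1% of cells at a median of 11134 UMIs, against 51.8 CPM in 20.0% of the other B cells at a median of 4397.5. BL/6 at 20 months had 8 such cells, with 0 UMIs of Fcer2a, Cr2 or Cd72, which allows up to 34.3 CPM of each.

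Genes that work with the members were read from lists. Of the follicular list (Ighd, Cxcr5, Klf2, Foxp1, Bach2 and Ccr7), 0 of 6 were higher and 3 lower in the Zcwpw1 group, against 12.5% and 17.5% of all genes tested, with a median log2 ratio of -1.90 against -0.04. Ccr7, a homing receptor for lymph nodes, was at -5.96, Ighd at -3.98 and Bach2, a repressor of plasma cell fate, at -3.48. Between strains 3 of 6 were lower at 12 months, against 11.9% of all genes, and 3 of 6 at 20 months, against 17.4%, and 0 were higher. With age 0 passed in BL/6, against 3.47% higher and 1.21% lower, and 1 was lower in SM/J, against 2.98%. The shares of all genes are the same for the lists that follow. Bach2 had strain ratios of -1.54 and -2.03 at 12 and 20 months, and Ighd of -1.07 and -1.61. Ighd was the list's call with age in SM/J, at -0.71.

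Of the genes that shed or induce CD23 (Adam10, Notch2, Rbpj, Stat6, Il4ra, Pax5 and Cd40), 4 of the 6 tested were lower in the Zcwpw1 group, against 17.5% of all genes, and 0 higher. They were led by Notch2 at -1.58, Cd40 at -1.56 and Pax5, which maintains B cell identity, at -1.25. Adam10, the protease that sheds CD23, stood at -0.04 and was named after its value had been seen. Between strains 3 of 7 were lower and 0 higher at each age, against 11.9% and 17.4% of all genes lower, led by the interleukin 4 receptor Il4ra at -1.43 and -1.37. By this 1.5-fold count 0 of 7 passed with age in either strain.

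Genes of inhibitory receptors like CD22 and CD72 and of complement were counted in the same way. Of the inhibitory pathway (Ptpn6, Lyn, Fcgr2b, Siglecg, Pirb, Inpp5d, Cd5, St6gal1, Sema4d and Fcrla), 6 of 9 were lower, against 17.5% of all genes, and 0 higher in the Zcwpw1 group, led by Fcrla at -1.88 and the Fc receptor Fcgr2b at -1.61. Between strains 6 of 9 were lower at 12 months, against 11.9%, led by Sema4d at -1.15, St6gal1 (which makes the sialic acid ligand of CD22) at -1.14 and Siglecg at -1.10, and 4 of 9 at 20 months, against 17.4%. With age it had 0 calls in BL/6 and 1 in SM/J, Pirb, also a myeloid gene, at 1.15. Of the complement list (Cr1l, Cd59a, Cd46, Cd55b, C3ar1, C5ar1, Itgam and Itgax), at most 3 could be tested. Itgam, also a monocyte and B-1 gene, was higher with age (1.34 in BL/6 and 1.42 in SM/J) and in SM/J (1.31 and 1.39), Cd46 was lower with age in BL/6 (-1.07) and between strains at 12 months (-0.79), and 0 passed in the Zcwpw1 group.

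Lists of other B cell subsets were mixed. Of the B-1 list (Bhlhe41, Zbtb32, Spn, Ctla4, Plscr1, Itgb1 and Lgals1), 4 of 6 were higher, against 12.5% of all genes, and 0 lower in the Zcwpw1 group, led by Lgals1 at 2.12 and Ctla4 at 2.04. In the strain comparisons 5 of 6 were higher and 0 lower at 12 months, against 9.02% of all genes higher, led by Zbtb32 at 2.65, and 4 of 7 higher and 1 lower at 20 months, against 9.85% higher. With age 4 of 6 were higher in BL/6, against 3.47%, led by Spn at 1.74, which is also a nonclassical monocyte marker, and 3 of 7 were higher and 1 lower in SM/J, against 3.25% higher. The 5 nonclassical monocyte markers, Spn included, stood at 21.8 and 63.9 CPM in the BL/6 B cells at 12 and 20 months and at 156 and 53.3 in those of SM/J, and their part in these counts was not tested. Of the marginal zone list (S1pr1, S1pr3, Dtx1, Mzb1, Cd36, Plac8 and Hes1), 3 of 7 were higher in the Zcwpw1 group, led by S1pr3 at 2.79 and Mzb1 at 1.55, and S1pr1 was lower at -1.12, against 12.5% and 17.5% of all genes. The median of that list was -0.25, below 0 although more of its genes were higher than lower. That list had 3 higher and 1 lower between strains at 12 months, 3 and 0 at 20 months, 1 and 0 with age in BL/6 (Mzb1 at 1.05) and 0 calls in SM/J. Of the age-associated list (Tbx21, Zeb2, Fcrl5, Cd80, Fas and Nt5e), 1 of 4 was higher and 2 lower in the Zcwpw1 group, against the same shares, with Nt5e at -4.59. It had 1 of 3 higher between strains at 12 months, 2 of 4 at 20 months and 0 calls with age. Vpreb3 was the only tested gene of the transitional list (Cd93, Vpreb3, Rag1, Myb and Sox4), at -7.47 in the Zcwpw1 group, -0.72 and -2.12 between strains, 0.60 with age in BL/6 and -0.79 in SM/J. Without the Fras1 cells several of these counts moved. With age in SM/J the follicular list then had 3 of 6 lower (median -0.61), against 4.22% of all genes, and the CD23 and marginal zone lists had 1 lower each. The inhibitory list then had 1 higher and 1 lower and the age-associated list 1 higher, against 3.5% of all genes higher. Between strains at 12 months, 2 follicular, 2 CD23 and 4 inhibitory genes were then lower, against 9%, the age-associated list had 0 higher and 1 lower, and Vpreb3 lost its call at -0.03. The B-1 list then had 6 of 7 higher and the marginal zone list 2 higher and 1 lower, against 6.63% higher. Between strains at 20 months, 4 of 6 follicular and 2 of 7 CD23 genes were then lower, against 18.6%. Each strain and age comparison shares libraries with others, so these counts are given side by side and not as support for each other.

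Genes with the pattern most like Fcer2a and Cr2 were sought over 15 points, the 12 aliquots of B cells with fewer than 5 Zcwpw1 UMIs and the 3 of the Zcwpw1 group, among 5602 genes. For Fcer2a the 5 highest Pearson correlations of log2 levels were with Neurl3 (r = 0.997), Slc14a1, Smad7, Ms4a4c and Stag1 (0.994). Among the highest for Cr2 were Pkib (0.996), B3gnt5, Cd72 and Dennd4a (0.994). The correlation of Fcer2a with Cr2 was 0.986, and 0.938 over the 12 points without the Zcwpw1 group, and that with Cd24a was -0.938 and -0.63. The points share libraries and runs, so these values are descriptions.

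Of the other blood cells, the nonclassical monocytes held Cd22 at levels that differed between the strains. Fcer2a and Cr2 were at or under 4 CPM in T cells, natural killer cells, monocytes and macrophages of all libraries. Cd22, in contrast, was higher in nonclassical monocytes of SM/J than in the B cells of the same libraries. These patrolling monocytes, marked by Ace, Treml4, Adgre4, Cd300e and Spn, held 564 CPM of Cd22 in SM/J at 12 months (333 cells) and 293 at 20 months (135 cells). In BL/6 they held 12.8 CPM at 12 months (318 cells) and 6.65 at 20 months (622 cells). A Cd22 UMI was found in 82.9% and 66.7% of the SM/J cells and in 5.35% and 3.22% of the BL/6 cells. The aliquots lay far apart, at 494 to 628 and 272 to 319 CPM in SM/J and 10.5 to 16.7 and 2.16 to 12.3 in BL/6. The log2 ratio of SM/J over BL/6 was 5.47 (4.93 to 6.06) at 12 months and 5.46 (4.90 to 6.06) at 20 months, where 11.4% and 7.67% of genes were higher by 1.5-fold or more.

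The level was also read in the nonclassical monocytes with no UMI of Cd79b or Ms4a1 (Cd79a was at 0 in all by definition). There the Cd22 level of SM/J was 561 CPM at 12 months, in 82.3% of 282 cells, and 289 CPM at 20 months, in 66.4% of 113 cells. The same cells of BL/6 stood at 12.9 and 7.00 CPM. Ighm, the heavy chain of IgM and a B cell RNA, was found in 61.6% (168 CPM) and 51.1% (132 CPM) of all SM/J nonclassical monocytes and in 50% (135 CPM) and 45.8% (111 CPM) of those of BL/6. The part of B cell RNA in the Cd22 level was not tested further. Within SM/J the level was lower at 20 months, at a log2 ratio of -0.95 (-1.14 to -0.76) with aliquots apart, where 3.72% of genes were lower by 1.5-fold or more. Classical monocytes of SM/J held less, 31.4 CPM at 12 months and 7.11 at 20 months, against 1.69 and 0.819 in BL/6. Macrophages of SM/J held 19.2 CPM at 20 months. At 12 months their 19 Cd22 UMIs came from 3 of 27 cells, 15 of them from 1 aliquot of 5 cells. Lineages were called by the marker list with the most UMIs, so some of these cells may be misplaced.

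Cd72 was found in T and natural killer cells of BL/6 and hardly in those of SM/J. Natural killer cells held 46.4 CPM in BL/6 at 12 months (27 UMIs in 117 cells) and 53.8 at 20 months (15 UMIs in 62 cells), against 0 UMIs in 55 and in 43 SM/J cells, which allows up to 19 and 19.1 CPM. T cells held 20.8 and 13.2 CPM in BL/6 and 0 and 4.94 in SM/J, where the 0 of 297 cells allows up to 2.12 CPM. Whether reads of Tesk1 add to these Cd72 values was not tested. Cd55 was present in T cells of all libraries at 84.0 to 121 CPM and lower in natural killer cells, at 12.8 to 29.2. Cd24a reached 30.5 to 88.6 CPM in macrophages and stayed at 2.06 to 9.18 in T cells.

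Cd9 was most abundant in platelets, at 8876 to 11010 CPM, where it is a known surface protein, and in basophils. It stood at 412 to 810 CPM in macrophages, 354 to 420 in nonclassical monocytes, 187 to 273 in natural killer cells and 39.5 to 50.7 in T cells. In nonclassical monocytes the strain log2 ratios of Cd9 were -0.25 at 12 months and -0.22 at 20 months. The corresponding ratios in B cells were 1.69 and 1.57, and the difference between the lineages was not tested. B cells held 58.5 to 119 CPM of the 5 platelet markers summed (3 to 5 of the 5 detected), against 11010 to 32659 in platelets, and the share of platelet RNA in the B cell level of Cd9 was not tested.

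**Figure D5:**
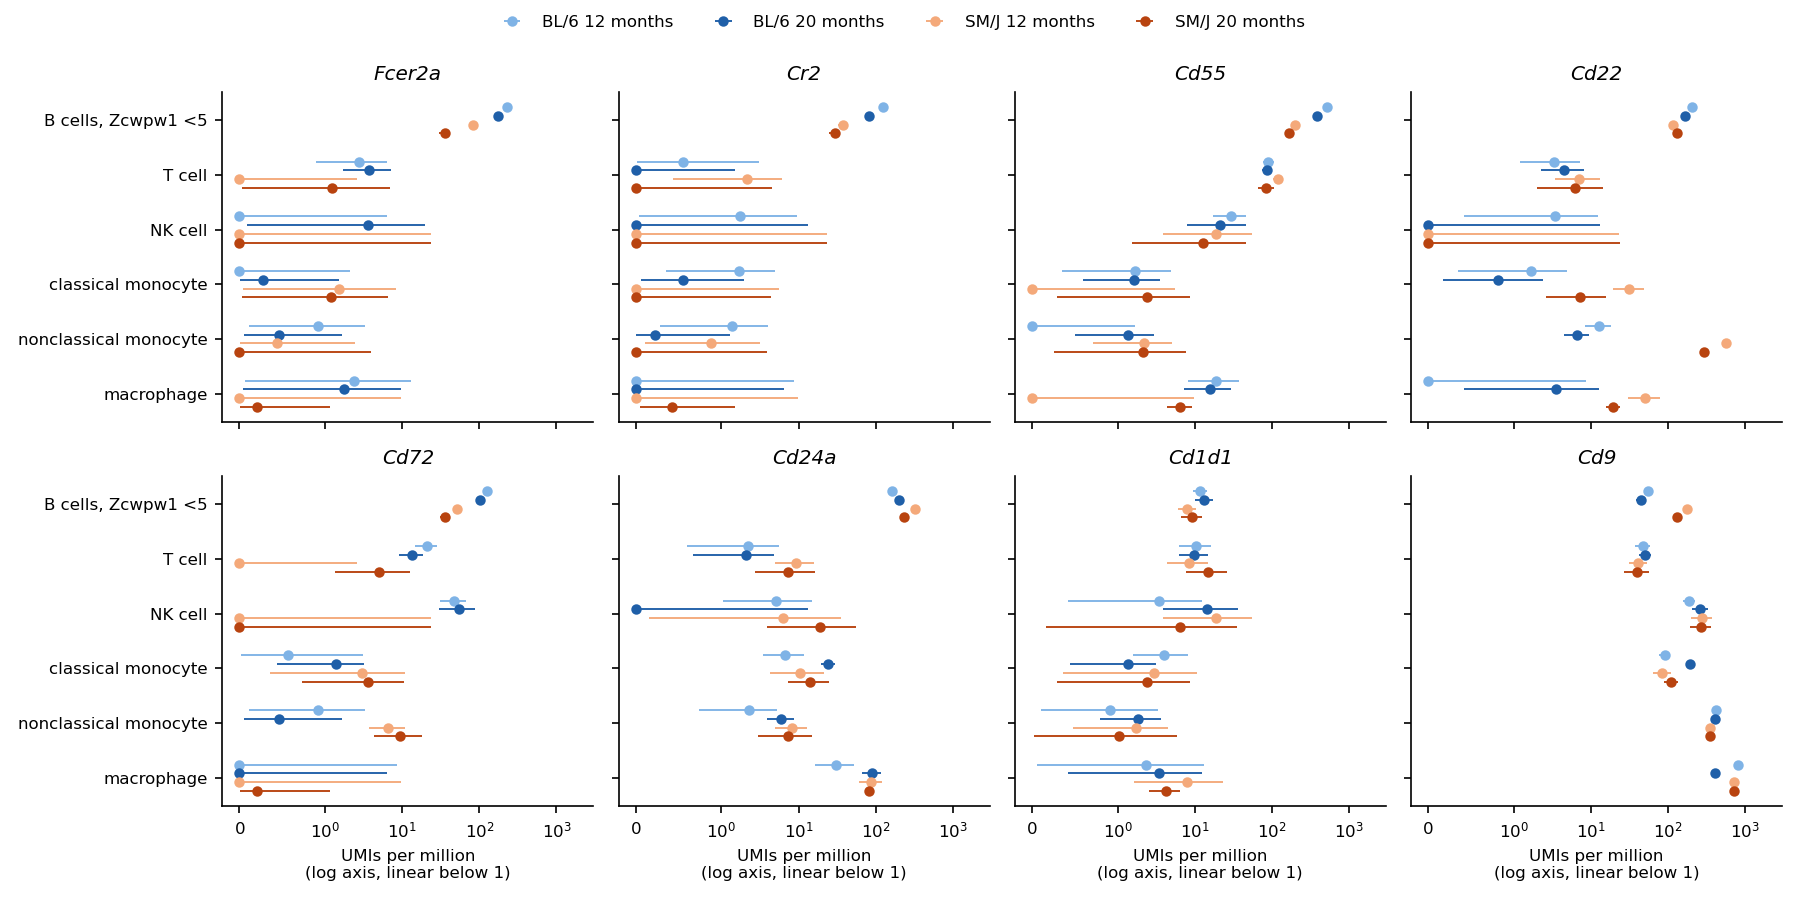
Level of each gene (x axis, CPM, log axis that is linear below 1) by cell lineage (y axis) and library (colour), with exact Poisson 95% intervals. Fcer2a and Cr2 stand apart in B cells, and in the Cd22 panel the nonclassical monocytes of SM/J (564 and 293) lie far from those of BL/6 (12.8 and 6.65).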

How the data were processed

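Single blood mononuclear cells were measured by droplet 3′ RNA sequencing. The authors deposited 1 matrix of raw UMI counts per strain and age, made with Cell Ranger 7.0.1 per the file headers, and the submitters' processing notes name build mm10 and Seurat 4.3.0. For the annotation and the calling of cells, the sources used here give nothing. Cells were kept with at least 500 UMIs, 200 genes and at most 10% mitochondrial UMIs, and 125 doublets called by Scrublet (scanpy 1.11.5, expected rate 0.06) were removed, 0.775% to 1.34% of cells per library. In the 12-month libraries, 20 and 28 cells carried tags of the other age and were left out of aliquot values but not of summed levels. Deposited depth was 14250603 to 30627357 UMIs per library.

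Counts were summed over cells and divided by the sum of all UMIs. Intervals (95%) are exact Poisson for levels, exact conditional binomial for ratios and Clopper-Pearson for shares, computed with Python 3.11.15, numpy 2.4.6, scipy 1.17.1 and pandas 2.3.3. PCR duplicates are collapsed by UMI, and the intervals cover counting error only. A gene was called past 1.5-fold. Where 0 UMIs were found, 3 UMIs of the total give the level allowed. Other lineages had 0 Cd79a UMIs and at least 3 UMIs of their marker list, and at least 2 times those of the next list, with 20 or more cells per value unless smaller groups are named. Alternatives included TMM factors (edgeR 4.0.16, R 4.3.3), mean UMIs per cell, thinning, other gates and leaving out each aliquot. The scripts were tested on simulated data.

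All 8 members are reported. Of each gene list, members past 1.5-fold were counted and up to 3 with the largest ratio named, and for likeness genes among the 5 highest correlations were named. The members and lists were chosen with earlier results of these data known. The Fras1 group, the Zcwpw1 comparison in BL/6, the monocyte comparisons and the setting without monocyte or macrophage markers were added after seeing the data. Of the lists, 1 gene list and 1 gene of another are not reported here.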

Additional observations from a re-analysis of the deposited data

Results flagged for a closer look

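Cd24a moved in opposite directions with age in the 2 strains. Its log2 ratio of 20 over 12 months was 0.33 in BL/6 and -0.46 in SM/J, and in each strain the 3 aliquots of one age lay wholly apart from those of the other. The difference between the strains was not tested, since each strain and age has 1 library. With the Fras1 cells left out the SM/J ratio was -0.08 with overlapping aliquots, so the opposite directions were then no longer seen in the aliquots.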

How the results depend on the processing

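No paired analysis was possible because each strain and age has 1 library, so that a replicate number only names a single sample and the groups share fewer than 2 of them. Of 1286 member ratios under the alternatives, 1042 stayed within their main counting interval, 242 left it and 2 reversed; ratios against 0 UMIs gave no value. Both reversals came with mean UMIs per cell: Cd1d1 in the Zcwpw1 comparison of SM/J (0.35) and Cd22 in that of BL/6 (0.54), where the Zcwpw1 cells held more UMIs per cell. The number of members past 1.5-fold stayed within 1.5 times in the strain, Zcwpw1 and Fras1 comparisons, at 5 to 8. With age in BL/6 it was 1, and 0 with mean UMIs per cell, with each cell weighted equally, with a pseudocount of 10, in cells with no T cell, Lyz2 or Jchain UMIs, without cells of 3 or more monocyte or macrophage marker UMIs, and at 2-fold. It was 2 after thinning to 1000 UMIs and with a mitochondrial limit of 5%. Leaving out 1 aliquot gave 0 to 1. With age in SM/J it was 1, and 2 with each cell weighted equally, with Cd79a of at least 1, with a Zcwpw1 threshold of 3 and with 0 Zcwpw1 UMIs. It was 3 with a mitochondrial limit of 5%, without Fras1 cells and without monocyte or macrophage marker cells, and 4 with no T cell, Lyz2 or Jchain UMIs and with a Zcwpw1 threshold of 10, with 0 higher in each of these settings. After thinning to 1000 UMIs it was 4, of which 1 (Cd1d1) was higher and 3 were lower. Leaving out 1 aliquot gave 1 to 2. The causes were not tested. The age counts are thus less settled than the strain counts. Cd1d1, at 43 to 93 UMIs per library, is limited by depth.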
